A study of Homo sapiens with 3 samples.

Results

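GDF15, FGF21, INHBE, STC2 and ADM2 are 5 of the 16793 genes measured in H446 cells, and each encodes a protein that is secreted from the cell. They were chosen by name as secreted stress hormones. The choice was made with earlier results of these same libraries known, and the values behind it are the differences between BAS-treated and vehicle-treated cells, so those differences are given here as a description and not as a test. H446 is an established line from a human small cell lung cancer, a neuroendocrine tumour of the lung, and BAS is 3-bromoascochlorin, a brominated derivative of the fungal compound ascochlorin. The 3 groups were H446 cells with vehicle, with 5 µM BAS and with 10 µM BAS, each for 48 h, and all were grown in the same serum-supplemented medium with no other agent and no altered allele in the labels. Each group is 1 library from total RNA, so no value has a replicate error and no p-value can be given for any difference. The 10 µM and 5 µM libraries are both set against the same vehicle library.

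The integrated stress response is a signalling route in which kinases that sense amino acid shortage, unfolded proteins, haem shortage or viral RNA phosphorylate the translation factor eIF2, which lowers bulk protein synthesis and raises translation of the transcription factor ATF4. ATF4 dimerises with C/EBP proteins and binds composite C/EBP-ATF elements at genes of amino acid supply, and in liver and muscle also at genes of hormones that carry the stress signal to other tissues. GDF15, a distant member of the TGF-beta family, acts on the hindbrain and lowers food intake, FGF21 acts on fat and brain through an FGF receptor with beta-klotho, and activin E, the product of INHBE, is made mainly in liver and acts on fat.

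FGF21 lies head to head with FUT1, a fucosyltransferase gene, and the stretch between their start sites holds the only match to the composite element core found among the hormone genes' promoters. Between the nearest RefSeq starts of the 2 genes lie 166 bases, and the 133 closest to FGF21 are shown. These lie outside FUT1 as GENCODE 29 gives it. They are shown because the core lies between a pair of genes that were both higher with BAS. The sequence is RefSeq sequence, build GRCh38.p14, chr19:48755391-48755523, on the plus strand and so in the direction of FGF21, from position -133 to -1 before the FGF21 start, and the capitals mark the core, which on the other strand reads as the searched letters TGATGNAA.
FGF21: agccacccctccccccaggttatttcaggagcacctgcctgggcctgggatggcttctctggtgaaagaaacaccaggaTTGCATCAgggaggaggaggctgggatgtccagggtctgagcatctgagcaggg

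The promoters of GDF15 and STC2 each hold a CCAAT box, the letters bound by the general promoter factor NF-Y, at nearly the same distance from the start, and these are shown for comparison with FGF21. Capitals mark the box on the strand shown. The GDF15 stretch is chr19:18386043-18386072 on the plus strand, and the STC2 stretch is chr5:173328497-173328526 on the minus strand, both in GRCh38.p14.
GDF15: ccagctgtggtcATTGGagtgtttactctg
STC2: ccggggtctcggATTGGtccagccgccggg

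Values are FPKM, fragments scaled by transcript length and by the mapped reads of the library, so levels can be set side by side between genes. GDF15 was listed at 3.60 FPKM with vehicle, 40.43 with 5 µM BAS and 62.59 with 10 µM. Both BAS libraries stood far above the vehicle library, 11.2-fold at 5 µM and 17.4-fold at 10 µM, and the 10 µM library was 1.55-fold above the 5 µM one. In rank among all genes with a value, GDF15 stood at the 43.9th percentile with vehicle, the 87.7th at 5 µM and the 92.4th at 10 µM. Because these are bulk libraries, fewer cells of a kind and less RNA per cell cannot be told apart.

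FGF21 was listed at 4.93 FPKM with vehicle, 38.43 with 5 µM BAS and 53.94 with 10 µM. The order of the libraries was the same as for GDF15, with 7.80-fold more at 5 µM and 10.9-fold more at 10 µM than with vehicle. Between the doses it was 1.40-fold higher at 10 µM.

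INHBE encodes the beta E chain of activin, which pairs with itself to form activin E. It was the most abundant of the 5 genes in every library, at 29.64 FPKM with vehicle, 82.16 with 5 µM BAS and 80.50 with 10 µM. Both BAS libraries were high and close to each other, 2.77-fold above vehicle at 5 µM and 2.72-fold at 10 µM, and the ratio of 10 µM to 5 µM was 0.98.

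STC2 encodes stanniocalcin 2, a glycoprotein that binds and blocks the protease PAPP-A and thereby limits release of insulin-like growth factors. It was low throughout, at 0.65 FPKM with vehicle, 1.75 with 5 µM BAS and 2.62 with 10 µM. The vehicle library was the lowest, with 2.69-fold more at 5 µM, 4.03-fold more at 10 µM, and 1.5-fold more at 10 µM than at 5 µM.

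ADM2 encodes adrenomedullin 2, also called intermedin, a peptide of the calcitonin family that widens blood vessels. It was listed at 0.05 FPKM with vehicle, 0.11 with 5 µM BAS and 0.12 with 10 µM, which is close to the resolution of values given to 2 decimals. Rounding alone allows a ratio between 1.91 and 2.56 at 5 µM and between 2.09 and 2.78 at 10 µM. No direction is drawn for ADM2.

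**Figure D1:**
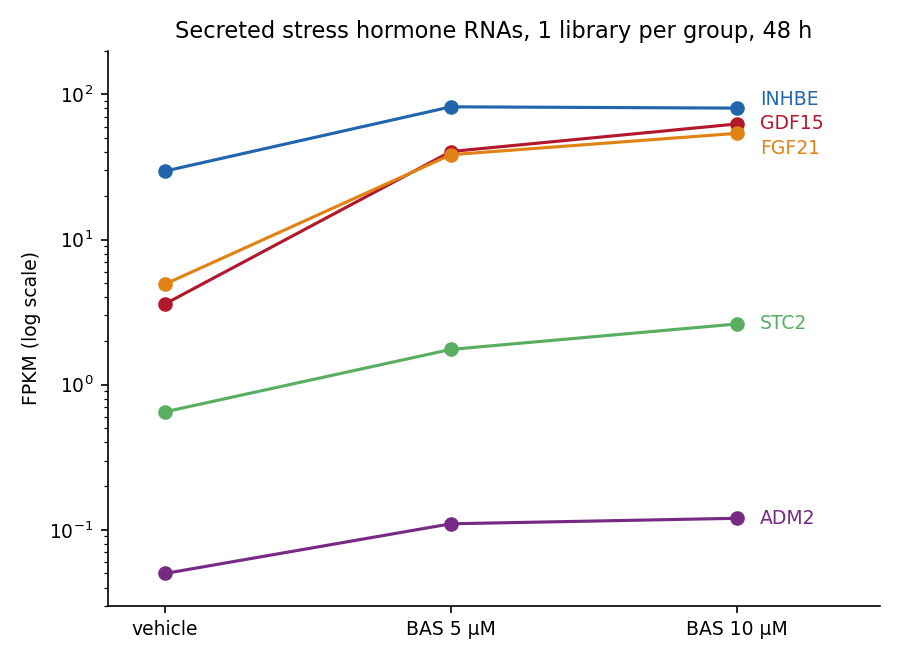
FPKM on a log axis for the 5 hormone genes in the vehicle, 5 µM and 10 µM libraries, 1 library per group, with lines joining the values of a gene. GDF15 (3.60, 40.43 and 62.59) and FGF21 (4.93, 38.43 and 53.94) climb with dose, INHBE is nearly level between the doses (82.16 and 80.50), and STC2 and ADM2 lie below the other genes in every library.

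The order of abundance was INHBE, FGF21, GDF15, STC2 and ADM2 with vehicle, and INHBE, GDF15, FGF21, STC2 and ADM2 in both BAS libraries. GDF15 and FGF21, which changed places, are only 40.43 and 38.43 FPKM at 5 µM, and without replicates neither that gap nor the change of place could be set against an error. Summed, the 5 genes gave 38.87 FPKM with vehicle, 162.88 with 5 µM BAS and 199.77 with 10 µM. INHBE held 76.3% of that sum with vehicle, 50.4% at 5 µM and 40.3% at 10 µM. GDF15 held 9.26%, 24.8% and 31.3% in the same libraries, and FGF21 12.7%, 23.6% and 27.0%. Thus 1 hormone RNA made up most of the sum with vehicle, and at 10 µM the sum was spread over 3.

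The number of reads behind these values was not stated. FPKM multiplied by length, for low and short genes with 1 annotated transcript, clustered near whole multiples of a step that corresponds to a depth of about 19800000 reads with vehicle, 19300000 at 5 µM and 19500000 at 10 µM. That step was chosen as the best-fitting one after several length sets and value ranges had been looked at, and only 35.2%, 42.7% and 38.4% of those genes in these libraries lay within 0.1 of a whole number, where an even spread gives 20%, so these depths are approximate and no count test was run. Taken with the longest transcript, GDF15 would rest on about 86, 938 and 1461 reads in the vehicle, 5 µM and 10 µM libraries. STC2 would rest on about 69 reads with vehicle, with an exact Poisson 95% interval of 53.7 to 87.3, on 181 at 5 µM (156 to 209) and on 273 at 10 µM (242 to 307). ADM2 would rest on about 4 reads with vehicle (1.09 to 10.2), 9 at 5 µM (4.12 to 17.1) and 10 at 10 µM (4.80 to 18.4), and these intervals overlap. Such intervals cover counting error only.

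Across genes, differences were taken as log2(FPKM + 1), which understates the change of low genes, among 11512 genes. These are the genes whose mean over vehicle, 5 µM and 10 µM reached 1 FPKM. A gene under 1 FPKM with vehicle could pass only through its BAS values, so the filter itself favours a higher call for it. A gene was called higher or lower at a difference of at least 1, that is 2-fold on this scale, since 1 library per group allows no test. Of the 5 hormone genes 4 passed the filter on low values, and ADM2, with a mean of 0.0933 FPKM, did not. STC2, at 0.65 FPKM with vehicle, passed only through its BAS libraries. At 5 µM against vehicle, 3 of the 4 were called higher, where 0.539% of all genes compared were called higher and 0.217% lower. The differences were 3.17 for GDF15, 2.73 for FGF21, 1.44 for INHBE and 0.74 for STC2, which fell short of the limit. At 10 µM all 4 were called higher, where 1.31% of the genes compared were called higher and 0.643% lower. The differences were 3.79, 3.21, 1.41 and 1.13 in the same order of genes. STC2 was therefore the member nearest the limit on either side of it. Since the choice of genes used these contrasts, nothing is read from the counts.

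Between the doses, 0 of the 4 were called, where 0.0434% of the genes compared were called higher at 10 µM and 0.0434% lower. The 10 µM minus 5 µM differences were 0.62 for GDF15, 0.48 for FGF21, 0.40 for STC2 and -0.03 for INHBE. The median over all genes compared was 0.04 between doses, 0.02 at 5 µM and 0.05 at 10 µM against vehicle. Of all genes compared, GDF15 ranked 2nd in its difference at 5 µM and 1st at 10 µM, FGF21 ranked 3rd and 2nd, INHBE 25th and 48th, and STC2 176th and 94th.

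**Figure D2:**
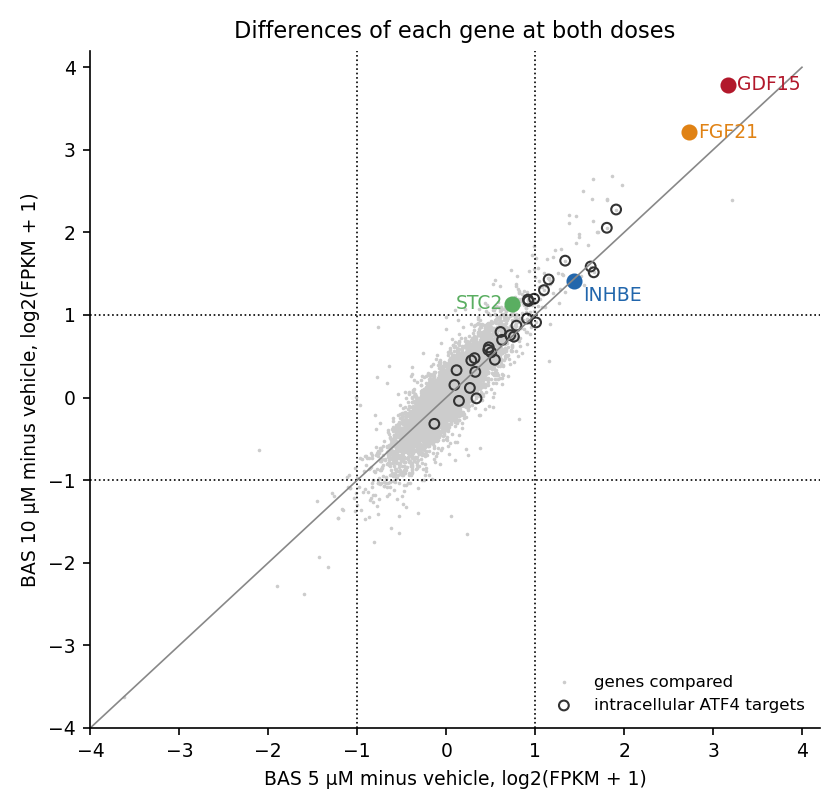
Each grey point is 1 of the 11512 genes compared, placed by its log2(FPKM + 1) difference from vehicle at 5 µM (x axis) and at 10 µM (y axis), with the 4 hormone genes that passed the filter in colour and intracellular ATF4 targets as open circles. Dotted lines mark a difference of 1 in either direction and the diagonal marks equal differences. GDF15 (3.17, 3.79) and FGF21 (2.73, 3.21) lie at the upper right, INHBE (1.44, 1.41) lies on the diagonal, and STC2 (0.74, 1.13) lies left of the limit at 5 µM.

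The hormone genes differed in how much of the 10 µM gain was already present at 5 µM. On the FPKM scale that share was 62.4% for GDF15, 68.4% for FGF21, 55.8% for STC2 and 103.3% for INHBE. The other 147 genes called higher at 10 µM had a median share of 61.6%, with quartiles of 50.2% and 74.2%. GDF15, FGF21 and STC2 lay between those quartiles, and INHBE was above them, with 8 of the 147 genes (5.44%) at 100% or more.

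Likeness of pattern was measured as the distance between genes in the plane of the differences at 5 µM and 10 µM, over 3 libraries. By this measure GDF15 and FGF21 lay 0.72 log2 units apart, nearer to each other than to any other gene. The nearest genes that are not hormone genes were HIST1H4K and GSG1 for both, at 1.40 and 1.70 from GDF15 and 0.96 and 0.99 from FGF21. HIST1H4K is listed at 0 with vehicle and is a histone gene with near-identical copies, so its place is uncertain. Nearest to INHBE were TSC22D3 at 0.09 and BMX at 0.14, beside a row named only by a number at 0.12. STC2 had RIBC1 at 0.003, EVA1A at 0.03 and NRIP3 at 0.04. Within 0.2 log2 units lay 0 other genes for GDF15, 0 for FGF21, 6 for INHBE and 75 for STC2, so the values of STC2 were common ones and those of GDF15 and FGF21 were not matched.

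INHBE and GDF15 were next set beside the other ligands of the TGF-beta family, which comprises TGF-betas, activins, bone morphogenetic proteins and growth differentiation factors. Among 27 such genes with a value, INHBE ranked 2nd in FPKM with vehicle, 1st with 5 µM BAS and 1st with 10 µM. It made up 18.8%, 34.9% and 31.9% of the summed FPKM of the family in those libraries. GDF15 ranked 7th, 3rd and 2nd and made up 2.28%, 17.2% and 24.8%. TGFB3, the highest with vehicle, was at 61.59, 49.03 and 40.36 FPKM, and BMP4 was at 23.95, 23.41 and 28.02 FPKM.

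The other activin and inhibin chains were near absent. INHBA and INHBB encode the chains of activins A and B, and INHA the inhibin alpha chain, and all 3 were at or below 0.04 FPKM in every library. INHBC, which lies next to INHBE on chromosome 12 and encodes the chain of activin C, was at 0.23, 0.34 and 0.23 FPKM. Of the 9 other family ligands compared, 0 were called higher and 0 lower at either dose, with a median difference of 0.04 at 5 µM and 0.22 at 10 µM. BMP6 had the highest difference of them at 10 µM, 0.81, at 0.49, 1.21 and 1.62 FPKM.

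FGF21 was the most abundant of 15 FGF family genes with a value in each library, and it made up 17.9% of their summed FPKM with vehicle, 61.6% with 5 µM BAS and 67.6% with 10 µM. With vehicle the next genes were close to it, FGF2 at 4.56 FPKM and FGF9 at 4.29. In the BAS libraries FGF2 was at 5.43 FPKM at 5 µM and 7.49 at 10 µM, and FGF9 at 5.83 and 5.97, far below FGF21. Of the 7 other FGF genes compared, 0 were called at either dose in either direction, with medians of -0.02 at 5 µM and 0.00 at 10 µM.

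**Figure D3:**
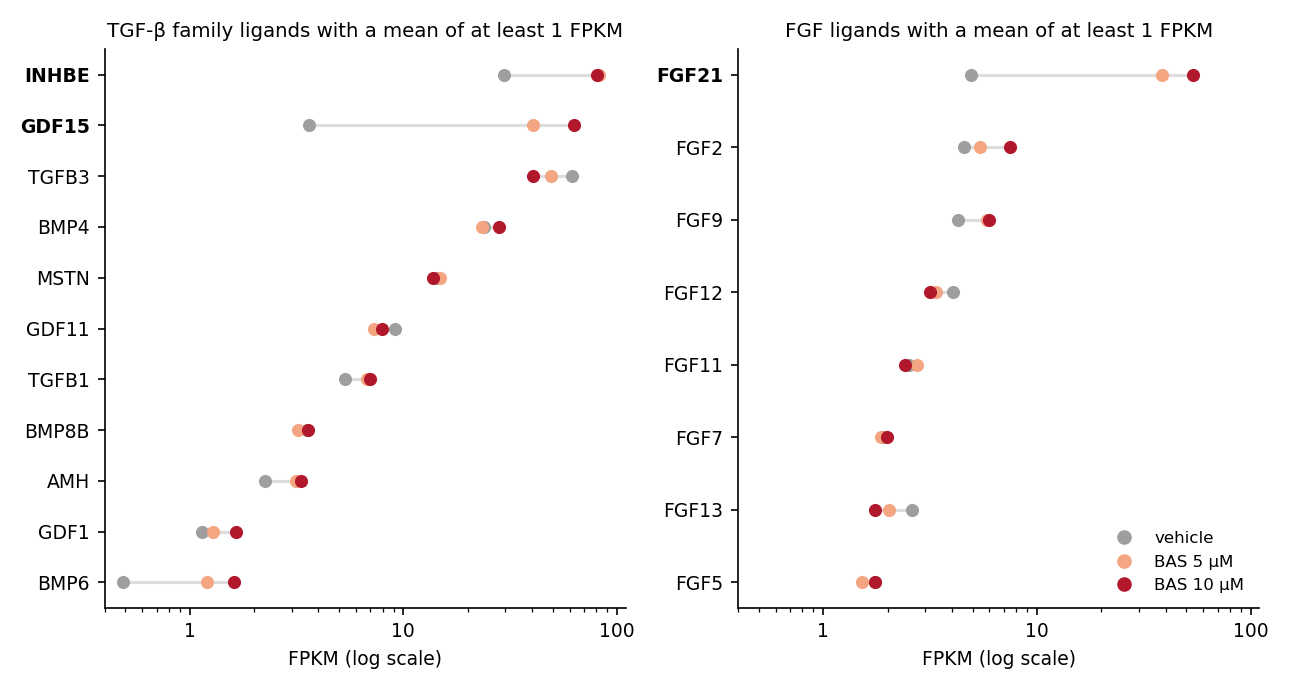
FPKM on a log axis for TGF-beta family ligands (left) and FGF ligands (right) with a mean of at least 1 FPKM, 1 dot per library, ordered by the 10 µM value, with the hormone genes in bold. The dots of GDF15, FGF21 and INHBE are spread widely from vehicle to BAS, while TGFB3 runs the other way, at 61.59 FPKM with vehicle, 49.03 with 5 µM and 40.36 with 10 µM BAS. Dots at equal values hide one another.

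The calcitonin family peptides are the relatives of ADM2. ADM, which encodes adrenomedullin, was at 2.61, 4.69 and 5.67 FPKM in the vehicle, 5 µM and 10 µM libraries, a difference of 0.66 at 5 µM and 0.89 at 10 µM, under the limit. CALCB, which encodes the beta form of calcitonin gene-related peptide, was at 0.05, 0.69 and 1.5 FPKM and did not pass the filter. ADM2 was below ADM in every library.

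The receptors that would let the cells respond to these hormones were looked at by hormone. GFRAL, the receptor for GDF15, was at 0.51, 0.19 and 0.18 FPKM, and RET, the kinase it signals through, at 0, 0.01 and 0. Neither passed the filter, and the RNA of the GDF15 receptor complex was at or near 0 in all 3 libraries.

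For FGF21 the receptor kinases were present and the co-receptor was nearly absent. FGFR1 was at 185.07 FPKM with vehicle, 133.92 with 5 µM BAS and 107.65 with 10 µM, a difference of -0.46 at 5 µM and -0.78 at 10 µM. FGFR2 was at 27.99, 20.54 and 18.63 FPKM and FGFR4 at 4.89, 6.47 and 7.17. KLB, which encodes beta-klotho, the co-receptor that FGF21 needs, was at 0.14, 0.19 and 0.08 FPKM. Of 5 FGF21 receptor genes compared, 0 were called at either dose, with medians of -0.11 and -0.06.

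Activin E is reported to act through ACVR1C, also called ALK7, on fat cells, and ACVR1C was at 0.03, 0.04 and 0.08 FPKM. Other receptors for activins and related ligands were present. ACVR1 was at 9.79, 17.07 and 18.56 FPKM, ACVR1B at 13.95, 15.49 and 15.35, and ACVR2A at 2.43, 2.36 and 2.48. The antagonists FST, which encodes follistatin, and FSTL3 were at 1.39, 2.29 and 2.83 FPKM and at 5.18, 6.91 and 8.33. Of 6 activin receptor and antagonist genes compared, 0 were called at either dose, with medians of 0.25 at 5 µM and 0.36 at 10 µM, and ACVR1 had the highest difference, 0.74 and 0.86.

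The protease that STC2 blocks was nearly absent and its substrate was abundant. PAPPA was at 0.03, 0.01 and 0.02 FPKM, whereas IGFBP4, the binding protein that PAPP-A cuts, was at 362.12 FPKM with vehicle, 325.20 with 5 µM BAS and 278.88 with 10 µM. IGFBP2 was at 222.53, 245.42 and 218.67 FPKM, and IGF1R, the growth factor receptor, at 3.17, 2.70 and 3.04. Of 7 such partners compared, 0 were called at either dose, with medians of -0.04 and -0.03. The lowest differences were those of IGFBP5, -0.53 and -0.80, at 3.34, 2.01 and 1.49 FPKM. The highest were those of IGFBP6, 0.83 and 0.73, at 0.48, 1.63 and 1.45 FPKM, which passed the filter only through its BAS libraries. For ADM2, the receptor gene CALCRL was at 2.98, 2.16 and 2.65 FPKM and its accessory protein gene RAMP2 at 23.56, 32.19 and 40.97, and 0 of 3 compared were called at either dose, with medians of 0.33 at 5 µM and 0.41 at 10 µM.

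**Figure D4:**
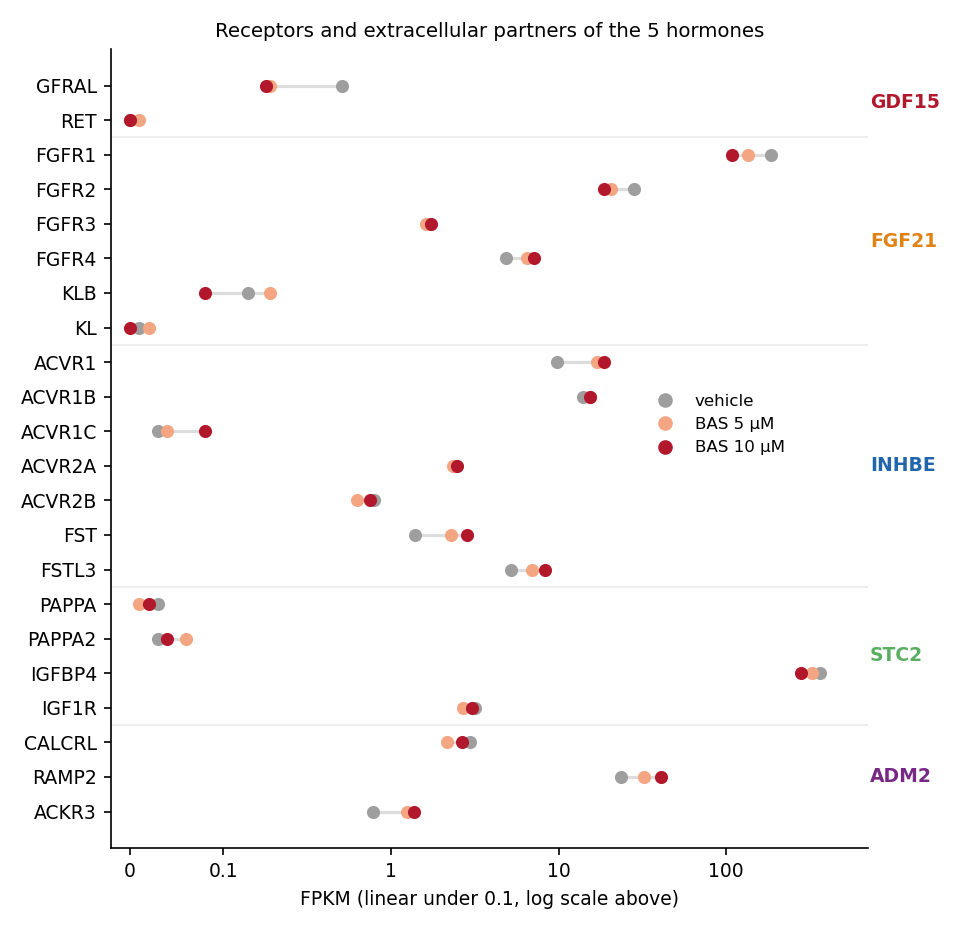
FPKM of receptors and extracellular partners, grouped by the hormone named at the right, 1 dot per library, on an axis that is linear under 0.1 and logarithmic above. GFRAL, RET, KLB, KL, ACVR1C, PAPPA and PAPPA2 lie under 1 FPKM in all 3 libraries, while FGFR1 and IGFBP4 are the highest of the genes plotted, which do not include IGFBP2. Dots at equal values hide one another.

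Hormones of these kinds are cut from longer precursors and some are modified before release. FURIN, a convertase that cleaves TGF-beta family precursors, was at 10.36, 12.95 and 12.23 FPKM. The neuroendocrine convertases PCSK1 and PCSK2 were at 2.40, 3.47 and 4.63 FPKM and at 2.62, 1.36 and 1.27. FAP, a protease that inactivates FGF21 by cutting its end, was at 1.95, 1.53 and 1.51 FPKM. Of 10 processing genes compared, 0 were called at either dose, with medians of 0.07 and 0.00, so no enzyme RNA passed the limit where GDF15 and FGF21 did.

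Upstream regulators, transcription factors together with the stress-sensing kinases ERN1 and EIF2AK1 to EIF2AK4, were read from a list of 24, of which 22 passed the filter. Higher calls numbered 2 at 5 µM and 5 at 10 µM, and lower calls 0 at both, with medians of 0.40 and 0.37. Among all genes compared, 0.539% and 1.31% were called higher at these doses. The list was chosen with earlier results known, so its counts are a description. DDIT3, which encodes CHOP, was at 11.99 FPKM with vehicle, 41.25 with 5 µM BAS and 51.08 with 10 µM, a difference of 1.70 and 2.0. ATF3 was at 7.92, 20.25 and 24.41 FPKM, with differences of 1.25 and 1.51. ATF5, CEBPB and EGR1, a growth factor-induced zinc finger factor, passed the limit at 10 µM, with differences of 1.05, 1.08 and 1.15, and did not at 5 µM, with 0.61, 0.89 and 0.44. ATF4 was at 233.77, 353.69 and 331.17 FPKM, a difference of 0.60 and 0.50, which did not reach the limit.

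The intracellular targets of ATF4 are genes known from other work as its targets, with products that stay in the cell or its membrane. Whether ATF4 acted on them or on the hormone genes in these cells was not tested. Of 30, all compared, 8 were called higher at 5 µM and 10 at 10 µM, and 0 lower at either, with medians of 0.67 and 0.75. Among all genes compared, 0.539% and 1.31% were called higher at these doses. This list too was chosen with earlier results known. TRIB3, a pseudokinase that binds ATF4, was at 19.83, 77.31 and 99.98 FPKM, with differences of 1.91 and 2.28. CHAC1, which degrades glutathione, was at 7.15, 24.13 and 23.48 FPKM, and DDIT4, an inhibitor of mTORC1, at 16.78, 55.14 and 49.88. In CHAC1 and DDIT4, as in INHBE, the 5 µM library was slightly above the 10 µM one. GDF15 and FGF21 had larger differences at both doses than the highest of the 30, which was TRIB3. INHBE was below TRIB3, JDP2, CHAC1 and DDIT4 at both doses.

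Other secreted factors linked to stress were read from a list of 19, of which 8 passed the filter. Of these 2 were called higher at 5 µM and 4 at 10 µM, with 0 lower at either and medians of 0.66 and 0.96. Among the 4, METRNL was at 0.82, 1.68 and 2.91 FPKM in the vehicle, 5 µM and 10 µM libraries. METRNL passed the filter only through its BAS libraries, which favours a higher call. Among all genes compared, 0.539% and 1.31% were called higher at these doses. This list too was chosen with earlier results known. VEGFA, the vascular growth factor, was at 6.45, 15.64 and 19.33 FPKM, and HBEGF, a ligand of the EGF receptor, at 5.91, 12.40 and 15.12. MANF and CRELD2, secreted proteins of the unfolded protein response, were at 55.60, 49.43 and 48.84 FPKM and at 13.32, 11.41 and 10.44. Neither was called, with differences of -0.17 and -0.21 at 5 µM and -0.18 and -0.32 at 10 µM.

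In the promoters, 300 bases from 250 before to 50 after the RefSeq start, 4 motifs were searched on both strands: TGATGNAA, the C/EBP-ATF composite core; TGACGTCA, the cAMP response element; CACGTG, an E-box; and CCAAT. None overlaps another in the matches reported. A window was found for 4 of the 5 genes, GDF15, FGF21, STC2 and ADM2. FGF21 held the composite core at position -54, counted back from the start, and no other of the 4 motifs. GDF15 held CCAAT at -103 and STC2 held it at -100, each on the opposite strand, and ADM2 held none of the 4.

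Over the promoters of 9373 compared genes, 1.64% held the composite core, 3.55% the cAMP response element, 10.5% the E-box and 37.0% CCAAT. Over all 27305 windows in the table the shares were 3.67%, 1.98%, 7.43% and 35.7%. The core was in 7 of 24 promoters of the intracellular ATF4 targets (29.2%) and in 8 of 115 promoters of the other genes called higher at 10 µM (6.96%). These sets overlap, since ASNS, CHAC1 and SLC3A2 hold the core and belong to both. The 8 also include FUT1, whose window holds the core shown for FGF21, so that match is not separate from FGF21. A match is a description of letters, and no match says only that these letters are not in this window.

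The genes on either side of each hormone gene were then read, a check added after values had been seen. Of 10 neighbouring genes 7 passed the filter, of which 1 was called higher at 5 µM and 2 at 10 µM. The shares called higher over all genes compared were 0.539% and 1.31%, and the counts are a description only. FUT1, on the strand opposite to FGF21 and with its nearest RefSeq start 166 bases from it, was at 0.90 FPKM with vehicle, 4.21 with 5 µM BAS and 5.98 with 10 µM. Both BAS libraries stood above the vehicle library, 4.68-fold at 5 µM and 6.64-fold at 10 µM, with differences of 1.46 and 1.88. FUT1 passed the filter only through these BAS libraries. BCAT2, on the other side of FGF21, was at 61.28, 63.18 and 53.03 FPKM and was not called. The start window of FUT1 that faces FGF21 also holds the composite core shown above. Another RefSeq start window of FUT1 holds none of the 4 motifs, and which start these cells used was not tested. With no strand setting given, reads of FUT1 or FGF21 that reach into the other gene could not be told apart by strand.

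PGPEP1, which lies before GDF15 on the same strand, was at 2.10 FPKM with vehicle, 4.58 with 5 µM BAS and 5.30 with 10 µM. Its difference was 0.85 at 5 µM and 1.02 at 10 µM, barely past the limit, and it was 0.98 after median-ratio scaling and 0.97 after quantile normalization. Because both genes lie on 1 strand, even a stranded count could not separate reads that run past the end of PGPEP1 from those of GDF15. No strand setting of the counting is given in the sources used here. Reads from overlapping transcripts on the other strand therefore cannot be told apart from those of PGPEP1. GLI1 beside INHBE, NKX2-5 and BOD1 beside STC2, and SBF1 beside ADM2 were not called.

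**Figure D5:**
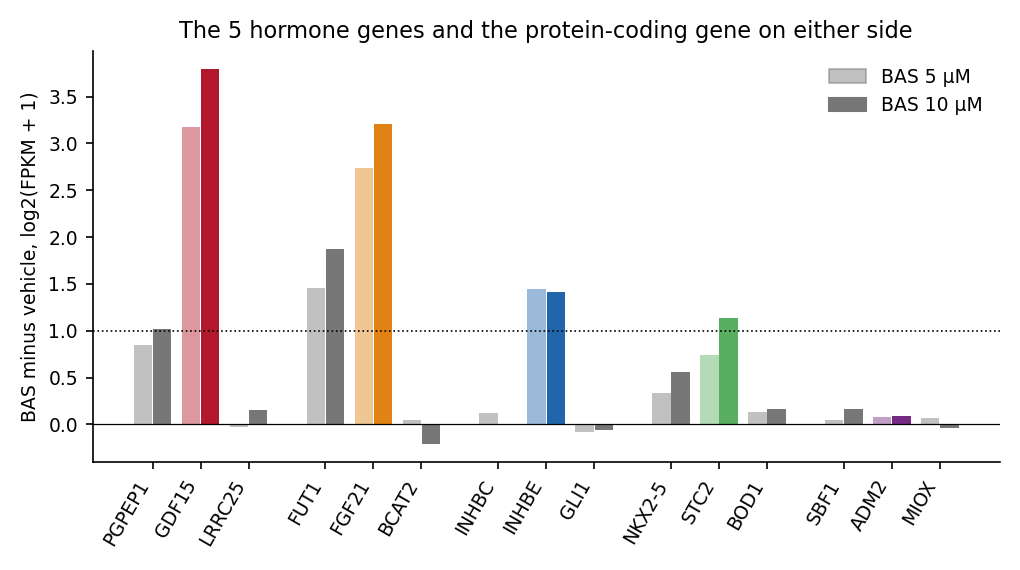
Differences from vehicle on the log2(FPKM + 1) scale at 5 µM (pale bars) and 10 µM (solid bars) for the 5 hormone genes, in colour, and the protein-coding gene on either side, in grey, with the dotted line at the limit of 1. FUT1 beside FGF21 stands at 1.46 and 1.88 and PGPEP1 beside GDF15 at 0.85 and 1.02, and the other neighbours lie below the limit. ADM2, LRRC25, INHBC and MIOX had too low a mean to be compared.

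The transcripts of the hormone genes were searched for exact sequence shared with other transcripts, and how the reads were assigned was not examined. For GDF15, FGF21, INHBE and STC2, 0% of the 50-base stretches of the longest transcript occur in another gene's transcripts on either strand. For ADM2 the share was 0.497% on the same strand and 0.733% on the other.

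The cells were checked against markers. All 8 small cell lung cancer markers with a value were above 1 FPKM in every library, and they summed to 401.96 FPKM with vehicle, 467.11 with 5 µM BAS and 534.68 with 10 µM. The hepatocyte markers ALB and APOA1, of the cell type best known for INHBE and FGF21, summed to 0.26, 0.16 and 0.19 FPKM and were near 0. Adipocyte markers summed to 0.23 FPKM or less. The 3 markers of trophoblast, placental cells known for GDF15, summed to 1.68, 2.82 and 3.81 FPKM, nearly all of it PSG1, and the 5 leukocyte markers to 4.86, 7.41 and 9.73, mostly CD68 at 2.85, 6.05 and 7.34. Skeletal muscle markers summed to 1.12, 1.48 and 2.51 FPKM. Among endothelial and fibroblast markers, CDH5 was at 57.56, 55.75 and 51.99 FPKM and COL1A2 at 389.39, 412.40 and 370.87, while PECAM1 was at or below 0.16 and DCN at or below 0.31. Trophoblast, leukocyte and muscle markers were highest with 10 µM BAS, in the same order of libraries as GDF15, and their part in the hormone values was not tested.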

How the data were processed

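RNA of H446 cells was sequenced as single-end 50-base reads after 48 h with vehicle or 3-bromoascochlorin, in 3 libraries, 1 per group, per the labels' protocols. Values were deposited as FPKM with 2 decimals, per the file headers. The tools named by the submitters' processing notes are Cufflinks, Cuffdiff, Bowtie2, BWA and Trim Galore, and the build is hg19. Their versions and roles, the annotation, the strand setting and how libraries were scaled are details not given in the sources. Columns of BAS libraries carry codes, ASB85 and ASB810, in place of the labelled doses, and whether they mean those doses could not be checked. The values sum to 487923, 507342 and 492102 FPKM with vehicle, 5 µM and 10 µM.

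Genes were compared as log2(FPKM + 1) where their mean was at least 1 FPKM, with an absolute difference of at least 1 as the limit. The difference, call and scaling steps were checked with known shifts and constant factors put into the vehicle library, without noise. That check shows only that the code returns what was put in, and the other steps were not part of it. The hormone genes, the 12 gene lists and the 8 marker sets were chosen with earlier results of these data known. Genes named are the hormone genes, those of the 3 nearest in pattern to each that are reported, members of the lists and neighbouring genes. Of these the neighbouring genes and the choice of list members to name came after values were seen. Transcript lengths and shared stretches came from GENCODE 29 by symbol, and promoters from RefSeq, so the only coordinates given are those of the promoter sequences printed. Some genes that the rule or lists would name are not reported here. An identity comparison of the encoded proteins was planned and not run. Alternatives were 10 planned settings and 1 added after the data were seen, removal of GC and length trends. The software was matplotlib 3.10.9, statsmodels 0.14.6, pandas 2.3.3, numpy 2.4.6 and Python 3.11.15.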

Additional observations from a re-analysis of the deposited data

How the results depend on the processing

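No paired analysis was possible because each group is 1 library. With 1 library per group no result here has a replicate error, and depth is known only approximately, so low genes such as STC2 and ADM2 are the least certain. No called difference of a hormone gene, FUT1 or PGPEP1 changed sign under the 10 planned settings or the added removal of GC and length trends. No list median reached the limit in the main setting, and several small ones changed sign. A filter at 5 FPKM gave TGF-beta ligand medians of -0.03 at 5 µM and -0.06 at 10 µM, against 0.04 and 0.22. It gave an FGF ligand median of 0.29 at 5 µM, against -0.02. The TGF-beta ligand median at 5 µM was also below 0 after common-total scaling and removal of the trends. Removal of the trends also turned the FGF ligand median at 5 µM. The STC2 partner median at 10 µM turned with it and with no filter. Outside the fold limits, the difference at 10 µM against vehicle ranged from 3.64 to 4.08 for GDF15, 3.12 to 3.43 for FGF21, 1.35 to 1.44 for INHBE and 1.07 to 1.86 for STC2, which does not pass a filter at 5 FPKM. The 10 µM minus 5 µM difference of INHBE, which was not called, was 0.01 after common-total scaling and after removal of the trends. The cause of the changes of sign and of those below was not tested. The exception is that a looser or tighter limit, filter or pseudocount by its construction admits more or fewer genes. With a pseudocount of 0.1, STC2 was called higher at 5 µM (1.30), counts over all genes were 143 higher and 53 lower at 5 µM, 275 and 145 at 10 µM, and 23 and 18 between doses. In the lists this setting gave 1 higher STC2 partner at each dose and 1 lower at 10 µM, 1 higher TGF-beta ligand at each dose and 1 higher calcitonin peptide at 10 µM. That peptide gene was ADM, the only gene of its list compared, with a difference of 1.09 at 10 µM. The median of other secreted factors at 10 µM was 1.19. A pseudocount of 0.5 gave 16 higher and 11 lower between doses, 1 higher STC2 partner at 5 µM, 1 higher TGF-beta ligand at 10 µM, and a median of 1.11 for other secreted factors at 10 µM. No filter gave 8 higher between doses and 1 higher calcitonin peptide at 10 µM. A filter at 5 FPKM gave 13 lower at 5 µM, 95 higher and 42 lower at 10 µM, and 2 and 2 between doses. Median-ratio scaling gave 2 higher and 7 lower between doses and quantile normalization 2 and 6, against 5 and 5. A limit of 1.5-fold gave 346 higher and 186 lower at 5 µM, 696 and 399 at 10 µM, and 51 and 47 between doses, and called STC2 at 5 µM (0.74) and GDF15 between doses (0.62). In the lists that limit gave 1 lower FGF21 receptor at 10 µM, 1 and 3 higher activin genes at 5 and 10 µM, and 1 and 1 higher STC2 partners with 1 lower at 10 µM. At 10 µM it gave 1 higher ADM2 receptor, 1 higher and 1 lower TGF-beta ligand and 1 higher FGF. It called ADM, the only calcitonin peptide gene compared, higher at 5 and 10 µM (0.66 and 0.89). It gave 1 lower processing enzyme at 5 µM, with 2 higher and 1 lower at 10 µM. It also gave 6 higher upstream regulators at 5 µM, 4 higher other secreted factors at 5 µM (medians 0.66 and 0.96), and 17 and 18 higher ATF4 targets (medians 0.67 and 0.75). A limit of 4-fold gave 3 higher and 2 lower at 5 µM, 18 and 4 at 10 µM, and 0 and 0 between doses, and no longer called INHBE (1.44 and 1.41) or STC2 at 10 µM (1.13). In the lists it gave 0 and 1 higher upstream regulators, 0 and 1 other secreted factors, and 0 and 2 ATF4 targets at 5 and 10 µM. Removal of the trends gave 3 higher upstream regulators at 10 µM, against 5.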

Other observations

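The 10 fucosyltransferase genes with a value were read beside FUT1, the neighbour of FGF21, after its values had been seen. Of the 6 that passed the filter, FUT1 was the 1 gene called higher, at both doses, with 0.90 FPKM with vehicle, 4.21 with 5 µM BAS and 5.98 with 10 µM. It passed only through its BAS libraries. Over all genes compared, 0.539% were called higher at 5 µM and 1.31% at 10 µM. FUT3 was at 12.61, 8.94 and 7.72 FPKM, FUT4 at 2.53, 2.96 and 3.49, and FUT8, which adds the core fucose of N-linked sugars, at 7.78, 7.82 and 6.90.

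PSG1, among the trophoblast markers, belongs to the pregnancy-specific glycoproteins, which are secreted from placenta and were also read after values had been seen. Of 10 such genes with a value 4 passed the filter, with median differences of 0.50 at 5 µM and 0.95 at 10 µM. Of these 4, 0 were called higher at 5 µM and 1 at 10 µM. Among all genes compared, 0.539% and 1.31% were called higher at these doses. PSG4 was at 6.14, 9.15 and 12.60 FPKM, PSG5 at 6.96, 10.16 and 10.90, and PSG11, the gene called, at 0.80, 1.47 and 2.92. PSG11 passed the filter only through its BAS libraries. These genes are near-identical copies, so reads can be split between them and each value is uncertain.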
